A study of Arabidopsis thaliana with 9 samples.

Results

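The Arabidopsis genes annotated as aluminium-induced proteins with YGL and LRDR motifs are a family of 5, namely AT3G15450, AT4G27450, AT5G19140 (AILP1), AT3G22850 and AT5G43830. They were taken by locus code, as 5 of 33473 genes in the deposited table. The family was chosen by its FPKM values in these same data, in which AT3G15450 and AT4G27450 were high under high light. The values of all 5 are therefore a description, with no test.

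Shoots of Arabidopsis thaliana, accession Col-0, were collected at 21 days of age. All plants had grown at 23 °C in dim light kept on throughout (50 µmol m-2 s-1). High light was 1000 µmol m-2 s-1 at 21 °C and lasted 0, 20 or 60 s, after which the pots went into liquid nitrogen. The 0 s plants served as controls, and each exposure had 3 pools of leaves from at least 30 plants, 9 samples in all. The table holds 1 FPKM value per gene and exposure (fragments mapped to a gene, relative to its length and the mapped total) and no value for the single pools, so no error, n or test can be given for any value below, and higher and lower describe the deposited numbers only.

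The family is named after short stretches of amino acids that its members share, tyrosine-glycine-leucine (YGL) and leucine-arginine-aspartate-arginine (LRDR), and after relatives in wheat whose transcripts are induced by aluminium. The proteins carry a fold like that of class II glutamine amidotransferases, the part of enzymes such as asparagine synthetase that releases ammonia from glutamine, but no enzyme activity is annotated for them. In leaves, transcripts of this kind are known from surveys of darkness and sugar shortage, conditions in which the energy sensing kinase SnRK1 is active.

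The coding sequences show what defines the family, and the stretch around each motif is printed here with the codons for YGL or LRDR in capitals. They come from RefSeq (TAIR10.1), on the strand of the gene, and lie in the second coding exon of each gene.
AT3G15450 YGL (chr3:5213413-5213439, plus): aatcgacaaTACGGTTTAtctgggaag
AT4G27450 YGL (chr4:13728301-13728327, minus): aacaaacagTATGGTCTCaccaagaca
AT5G19140 YGL (chr5:6425077-6425103, plus): aaacagcagTACGGGCTTgcaaaaaac
AT3G22850 YGL (chr3:8089610-8089636, plus): aagcaacaaTATGGACTAaccaaaaca
AT5G43830 YGL (chr5:17623303-17623329, minus): aagcagcagTATGGACTGaacaaaatc
AT3G15450 LRDR (chr3:5213473-5213502, plus): tatcgaacaCTTCGTGATCGTggtccttac
AT4G27450 LRDR (chr4:13728241-13728270, minus): tataggactCTTAGAGACAGAggtccttat
AT5G19140 LRDR (chr5:6425134-6425163, plus): tataagactCTCCGTGACAGAgctccttac
AT3G22850 LRDR (chr3:8089667-8089696, plus): tacagaactCTAAGAGATCGTggtccgtat
AT5G43830 LRDR (chr5:17623243-17623272, minus): tacaggacaCTACGTGATCGAggtccttac

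Each of the 5 genes held YGL and LRDR once in frame. The codon spellings differed in all 5, for YGL as for LRDR. From the start of YGL to the start of LRDR there were 20 codons in AT3G15450 and 19 in the other 4 genes. Coding lengths ran from 705 bases in AILP1 to 762 in AT3G15450. Translated coding sequences fell into pairs, with 72.2% identity between AT3G15450 and AT4G27450 and 68.5% between AT3G22850 and AT5G43830, while every other pairing, AILP1 with any member included, lay between 44.6% and 48.8%. The longest exact run of bases shared by the transcripts of any pair was 21, in the AT3G15450 and AT4G27450 pair and again in the AT3G22850 and AT5G43830 pair.

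**Figure D1:**
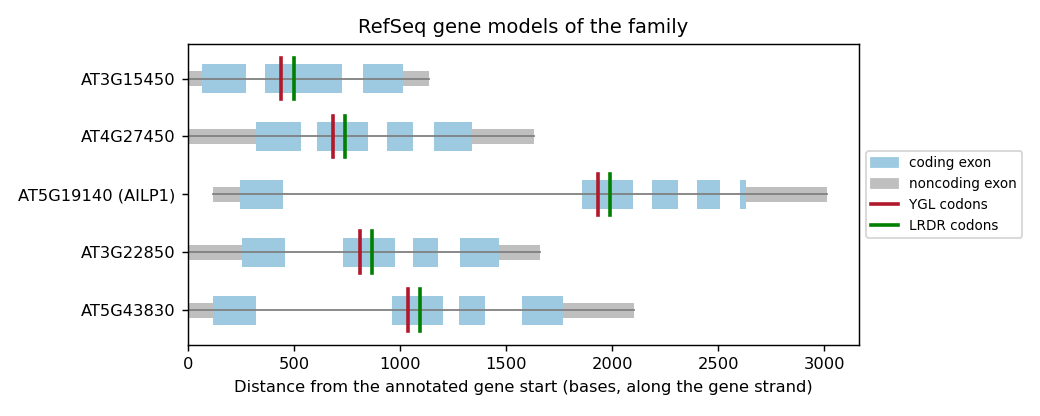
RefSeq gene models of the 5 genes, drawn to scale along the gene strand from the annotated gene start (horizontal axis, bases). Blue boxes are coding exons, grey boxes noncoding exon parts, and the red and green marks the YGL and LRDR codons, which lie in the second coding exon of all 5 genes.

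The member with the highest ratio under high light was AT3G15450, a gene of unknown molecular function in the annotation. Its values at 0, 20 and 60 s were 94.6, 359 and 423 FPKM. At 20 s it was 3.77-fold as high as at 0 s, and at 60 s 4.44-fold (log2 ratios 1.91 and 2.15). Folds and log2 ratios are taken after adding 1 to each FPKM, unless called plain. Most of the difference was present at 20 s, where the value exceeded that at 0 s by 265 FPKM, against 328 FPKM at 60 s, so 80.6% of the later difference. From 20 s to 60 s the step was small, with a log2 ratio of 0.24.

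AT4G27450, its closest relative in sequence, had lower levels and a more gradual course, with 21.2, 42.6 and 67.9 FPKM at 0, 20 and 60 s. Its log2 ratio was 0.97 at 20 s and 1.63 at 60 s, against 0 s. Of the difference of 46.6 FPKM at 60 s, 45.8% was present at 20 s. Between 60 s and 20 s it had the highest ratio of the family, at 1.58-fold. As the plain ratio of FPKM the value at 20 s was 2.00 times that at 0 s, and on the scale of FPKM + 1 it was 1.96-fold, just below a 2-fold limit.

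The other 3 genes lay close to their 0 s values. AILP1, described in the annotation as responding to auxin and to aluminium ions and as located at the plasma membrane, had the highest level of the family at every exposure. It stood at 381, 434 and 484 FPKM at 0, 20 and 60 s, with log2 ratios to 0 s of 0.19 and 0.34. AT5G43830 stood at 181, 201 and 208 FPKM, with log2 ratios of 0.15 and 0.19. AT3G22850 stood at 25.6, 27.5 and 24.8 FPKM, and was the only member listed lower at 60 s than at 0 s, by a log2 ratio of -0.04. AT5G43830 and AT3G22850 are the second pair of close relatives, so the pair with ratios past 1.5-fold and the pair without are also the pairs that stand together by sequence. With 2 pairs, this is a description of these genes only.

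**Figure D2:**
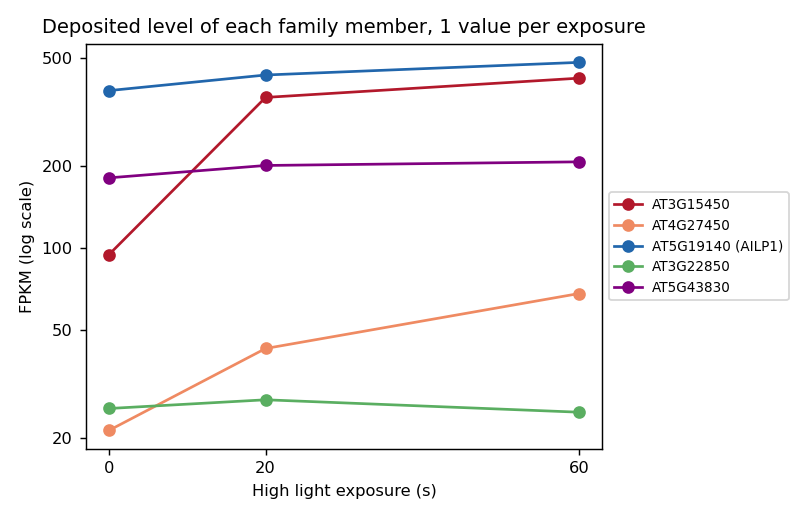
Deposited FPKM (vertical axis, log scale) of the 5 genes against high light exposure in seconds; each point is the authors' 1 value for that exposure, with no error. AT3G15450 crosses above AT5G43830 and AT4G27450 above AT3G22850 by 20 s, while the other 3 lines are nearly flat.

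In the order of levels, AT3G15450 was the third of the family at 0 s, after AILP1 and AT5G43830, and the second at 20 s and 60 s, after AILP1. AT4G27450 was the lowest at 0 s and stood above AT3G22850 at 20 s and 60 s. Without values for the single pools, no neighbours in this order can be shown to differ beyond their spread. By mean level AILP1 ranked 233 and AT3G15450 ranked 385 among the 13946 genes that averaged 5 FPKM or more over the exposures, a minimum that all 5 members passed. AT5G43830 ranked 645, AT4G27450 ranked 3254 and AT3G22850 ranked 5418.

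Summed over the family, FPKM at 0, 20 and 60 s came to 703, 1065 and 1207. AT3G15450 made up 13.4%, 33.7% and 35.0% of that sum. AILP1 made up 54.1%, 40.8% and 40.1%. AT4G27450 remained a small part at 3.02%, 4.0% and 5.63%. The sum of AILP1, AT3G22850 and AT5G43830 alone was 588, 663 and 716 FPKM, so 1.22 times the 0 s sum at 60 s as a plain ratio, against 4.24 times for AT3G15450 and AT4G27450 together.

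**Figure D3:**
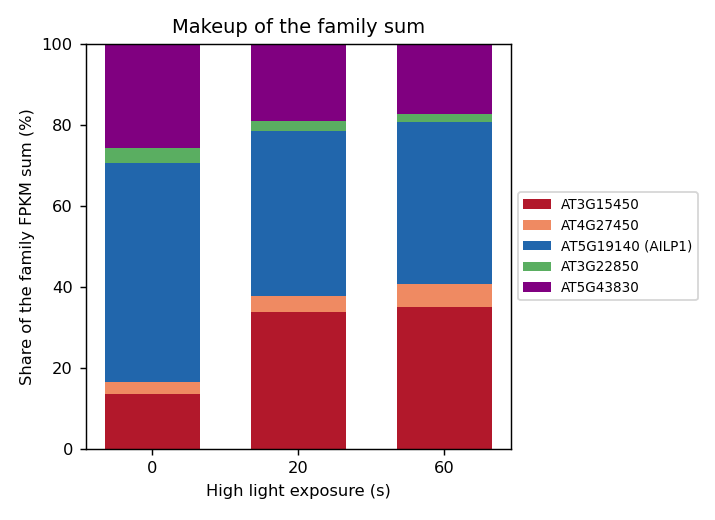
Share of each gene in the summed FPKM of the family (vertical axis, percent) at 0, 20 and 60 s of high light; colours mark the genes. The share of AT3G15450 was 33.7% at 20 s and 35.0% at 60 s, against 13.4% at 0 s.

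Set against the 13946 genes past that minimum, 5 of 5 members were higher at 20 s than at 0 s, as were 48.5% of all genes. At least 1.5-fold higher at 20 s were 2 of the 5, against 1.79% of all genes, and at least 2-fold higher was AT3G15450 alone, against 0.559%. At 60 s against 0 s, 4 of 5 members were higher (54.6% of all genes), 2 of 5 at least 1.5-fold higher (1.69%) and the same 2, AT3G15450 and AT4G27450, at least 2-fold higher (0.538%). At 60 s against 20 s, 4 of 5 were higher (57.6%), AT4G27450 alone at least 1.5-fold higher (0.545%) and 0 of 5 at least 2-fold higher (0.143%). The members were chosen with these ratios known, so nothing is read from these shares. By ratio to 0 s, AT3G15450 ranked 20 at 20 s, then 16 at 60 s, and AT4G27450 ranked 84, then 26. On the log2 scale the middle 95% of genes spanned -0.29 to 0.49 for 20 s against 0 s, and -0.32 to 0.49 for 60 s against 0 s. AILP1, AT5G43830 and AT3G22850 lay inside those ranges.

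**Figure D4:**
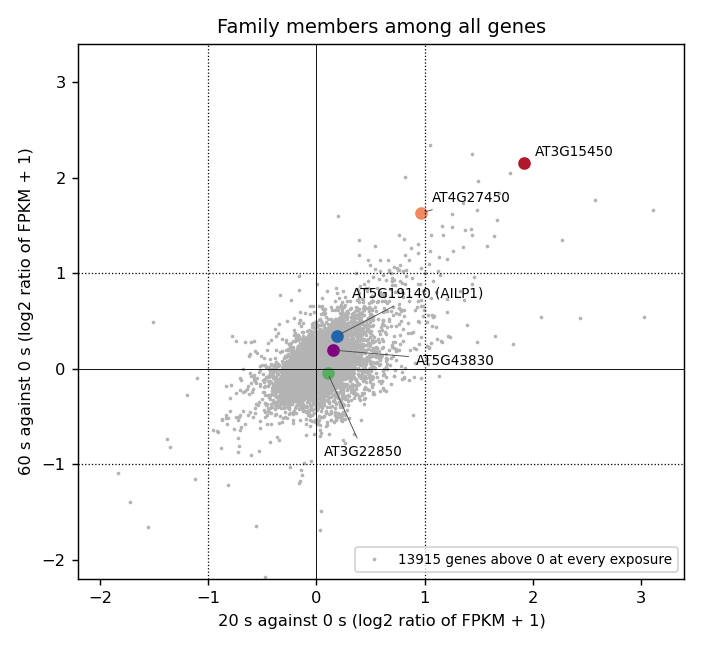
Log2 ratio of FPKM + 1 at 20 s against 0 s (horizontal) and at 60 s against 0 s (vertical), with the 5 family members in colour over 13915 genes above 0 at every exposure (grey); 3 genes lie outside the axes and dotted lines mark 2-fold. The axes share the 0 s values. AT3G15450 lies past 2-fold on both axes and AT4G27450 on the vertical one, while AILP1, AT5G43830 and AT3G22850 lie inside the main cloud.

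FPKM summed to 817000, 829701 and 858218 over all genes in the table at 0, 20 and 60 s, with all 279 organelle genes listed at 0. Over 4 ribosomal RNA genes the FPKM sum was 136, 1504 and 570, highest at 20 s, and their part in the ratios was not tested. The 4 shoot markers, the photosynthesis genes RBCS1A, LHCB2.1, LHCA4 and CA1, summed to 21859, 21150 and 21918 FPKM. None of the 4 root markers or 3 flower markers reached 1 FPKM at any exposure, with sums of 0.650 to 0.964 FPKM for root and 0.365 to 0.655 FPKM for flower, and the root aquaporin gene TIP2;3 was listed at 0 at 0 s and 20 s. Guard cell markers (KAT1, FAMA and MYB60) summed to 37.2, 32.4 and 35.4 FPKM. At 20 s 3 of 3 were lower than at 0 s, while 48.5% of all genes were higher. Their log2 ratios there were -0.03, -0.20 and -0.25, inside the range given above that held most genes (-0.29 to 0.49). Vascular markers (SUC2, XCP1 and IRX3) summed to between 95.9 and 105 FPKM. The part of the guard cell and vascular markers in the family's ratios was not tested. In whole shoots, more cells of a type and more transcript per cell cannot be told apart.

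The loci of the members limit what their values mean. The deposited table gives AT3G15450 the interval chr3:5212984-5216261, which it also gives to AT3G15460, a Brix domain gene of ribosomal RNA processing on the other strand. In RefSeq TAIR10.1 these genes overlap by 41 bases. AT3G15460 stood at 11.0, 8.63 and 8.45 FPKM at 0, 20 and 60 s, so it was lower where AT3G15450 was higher. AILP1 likewise shares chr5:6423153-6428467 with AT5G19150, a carbohydrate kinase gene of the pfkB type on the other strand, and there the RefSeq models overlap by 2862 bases. AT5G19150 stood at 15.1, 15.0 and 14.8 FPKM. The sources used here do not give the strand handling, and without it reads from the overlapping parts cannot be told apart.

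AT4G27450 has chr4:13727484-13728886 in the deposited table, AT3G22850 has chr3:8089003-8090470 and AT5G43830 has chr5:17622336-17624329, all on the TAIR9 build named in the submitters' processing notes and counted from 1. None of these 3 shares its interval with another listed gene. Next to AT4G27450 lie PORB, a protochlorophyllide oxidoreductase of chlorophyll synthesis, at 508, 532 and 604 FPKM, and CBSX5, of the cystathionine beta-synthase domain family, under 2 FPKM throughout. The genes beside AT3G22850 and AT5G43830 had log2 ratios against 0 s between -0.06 and 0.22. Of these, TIF3C2 and HSFA6A stayed under 1 FPKM at every exposure, where the pseudocount of 1 holds ratios near 0 by construction.

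The regions upstream of AT3G15450 and AT4G27450 are shown because these are the members with high ratios. Each is the 250 bases before the RefSeq gene start (TAIR10.1), on the strand of the gene, with matches to the motifs searched in capitals. These are ACGT and TATCCA, and GATAAG, which reads CTTATC on the other strand.
AT3G15450 (chr3:5212734-5212983, plus): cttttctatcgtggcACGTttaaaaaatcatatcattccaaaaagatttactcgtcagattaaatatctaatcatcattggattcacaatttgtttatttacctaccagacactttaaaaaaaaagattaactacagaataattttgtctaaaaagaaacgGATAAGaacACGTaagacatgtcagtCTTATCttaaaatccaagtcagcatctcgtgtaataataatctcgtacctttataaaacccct
AT4G27450 (chr4:13729003-13729252, minus): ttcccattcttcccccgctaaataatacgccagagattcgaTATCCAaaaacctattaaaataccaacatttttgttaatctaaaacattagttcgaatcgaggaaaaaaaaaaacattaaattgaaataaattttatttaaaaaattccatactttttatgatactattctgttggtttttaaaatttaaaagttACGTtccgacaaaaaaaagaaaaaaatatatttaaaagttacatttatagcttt

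The motifs were searched on both strands in the same 250 bases of 27443 protein-coding genes. ACGT, the core bound by many bZIP factors, was found in AT3G15450 2 times and in AT4G27450 1 time. It was also found 3 times each in AILP1 and AT5G43830, which had low ratios, and in 44.1% of all promoters. GATAAG, of the GATA type, was found 2 times in AT3G15450, 1 time in AILP1 and 2 times in AT5G43830 but not in AT4G27450, and in 12.3% of all promoters. TATCCA, known from sugar-responsive promoters in rice, was found 1 time in AT4G27450, 1 time in AILP1 and 3 times in AT5G43830, and in 13.6% of all promoters. In AILP1 its match overlaps the GATAAG match. The G-box CACGTG, which contains ACGT, was found in AT5G43830 alone (6.49% of all promoters). ACTCAT (12.3%), AAAATATCT, the evening element (2.36%), CGCGTT, of rapid stress genes (2.59%), and TTGACC, of the W-box type (12.2%), were found in 0 of the 5. AT3G22850 held 0 of the 8 motifs, and its 250 bases are the only ones of the 5 that overlap a neighbouring gene, AT3G22845. No motif other than ACGT was found in both AT3G15450 and AT4G27450.

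Class II glutamine amidotransferase enzymes, the family's relatives by fold, had 7 of 10 genes past the minimum level. At 20 s 5 were higher than at 0 s and 2 lower, with a median log2 ratio of 0.02, against -0.00 over all genes, and at 60 s again 5 were higher and 2 lower (median 0.06, against 0.01). Over all genes, 48.5% were higher at 20 s and 54.6% at 60 s, with 0.559% and 0.538% at least 2-fold higher. Of the 7, ASN1, the dark-inducible asparagine synthetase, was the only gene past 2-fold, at 4.15, 13.5 and 19.1 FPKM at 0, 20 and 60 s. ASN1 passed the minimum level through its values at 20 s and 60 s. Its sister gene ASN2 stood at 120, 121 and 145 FPKM, and ASN3 at 10.6, 11.0 and 10.1 FPKM. Of the glutamate synthases, GLU1 stood at 447, 437 and 464 FPKM and GLU2 at 14.3, 15.4 and 14.6 FPKM. The amidotransferase ASE2 of purine synthesis had the lowest ratios against 0 s, at 16.4, 15.0 and 14.2 FPKM. Between 60 s and 20 s, 4 were higher and 3 lower, against 57.6% of all genes higher. The median was 0.09, against 0.02. With no minimum level, over all 10 genes, that median was -0.03.

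Genes known from darkness and sugar starvation had 18 of 23 members past the minimum level, and 18 of these 18 had higher values than at 0 s, at 20 s as at 60 s, against 48.5% and 54.6% of all genes. At least 2-fold higher were 7 at 20 s and 10 at 60 s, against 0.559% and 0.538% of all genes. ASN1 and SEN1, under 5 FPKM at 0 s, passed the minimum level through their values at 20 s and 60 s. Their median log2 ratio was 0.82 at 20 s and 1.02 at 60 s, against -0.00 and 0.01 over all genes. This list was also chosen with these data known, and ASN1 belongs to it as well. DIN10, of the raffinose synthase family, had the highest ratio at 20 s (44.0, 139 and 117 FPKM), and SEN1, a senescence-associated and dark-inducible gene, the highest at 60 s (4.01, 12.6 and 22.7 FPKM). The lowest were AT1G21400 (10.3, 10.7 and 10.3 FPKM) and BCE2 (13.1, 14.9 and 15.8 FPKM) at 20 s, both subunits of the branched-chain keto acid dehydrogenase, and AT1G21400 and the glutamate dehydrogenase GDH2 (17.0, 25.5 and 19.9 FPKM) at 60 s.

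AT3G15450 had a higher ratio at 20 s than all 18 of these genes, whose highest was 1.64 on the log2 scale, and at 60 s SEN1 alone lay above it, at 2.25. AT4G27450 had 7 of the 18 above it at 20 s and 3 at 60 s, namely SEN1, ASN1 and the kelch repeat gene AT1G80440. Of the other family members, AILP1 had 14 of the 18 above it at 60 s and AT5G43830 had 17, while AT3G22850, at -0.04, lay below all 18. Between 60 s and 20 s the starvation genes were mixed, with 14 higher and 4 lower, against 57.6% of all genes higher. Their median was 0.10, against 0.02 over all genes. Highest there were SEN1 and the dormancy-associated AT2G33830 (204, 264 and 412 FPKM), and lowest the kelch repeat gene AT1G15670 (6.95, 15.2 and 10.2 FPKM) and GDH2. AT4G27450, with 0.66, had SEN1 alone above it in that comparison.

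SnRK1, the energy sensing kinase that is active in sugar shortage, had 7 of 7 subunit genes past the minimum level. At 20 s 4 were higher and 3 lower (median 0.04), and at 60 s likewise (median 0.03, or -0.01 after quantile normalization). The shares of all genes that were higher were 48.5% and 54.6%. AKINBETA1, a regulatory beta subunit, had the highest ratios at 24.6, 36.6 and 45.0 FPKM, followed by KING1, a gamma subunit, at 27.0, 35.3 and 42.6 FPKM. The catalytic subunit KIN10 stood at 24.8, 25.7 and 25.3 FPKM. The beta subunits AT4G16360 (24.7, 22.0 and 22.9 FPKM) and AT2G28060 (17.8, 16.4 and 16.4 FPKM) were the lowest against 0 s. At 60 s against 20 s, 6 were higher and 1 lower, against 57.6% of all genes higher. The median was 0.02, as over all genes, and -0.00 after median centring.

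The bZIP transcription factors of groups S1 and C, which are linked to SnRK1 signalling, had 7 of 9 genes in the table, 6 of them past the minimum level. At 20 s 2 were higher and 4 lower (median -0.02), and at 60 s 4 were higher and 2 lower (median 0.06). The shares of all genes that were higher were 48.5% and 54.6%. BZO2H3, also known as bZIP63 and a substrate of SnRK1, had the highest ratios to 0 s, with 31.0, 45.7 and 49.2 FPKM at 0, 20 and 60 s. Second by ratio at 20 s was BZIP25 (34.9, 37.0 and 37.6 FPKM), and second at 60 s BZIP9 (20.6, 19.6 and 26.7 FPKM). The lowest ratio to 0 s was that of bZIP2 at 20 s (59.4, 49.1 and 55.8 FPKM), the gene with the highest mean FPKM of the list, and that of GBF6, which is bZIP11, at 60 s (22.8, 22.7 and 19.5 FPKM). At 60 s against 20 s, 5 were higher and 1 lower (median 0.07, against 0.02 over all genes), and 57.6% of all genes were higher.

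Aluminium tolerance genes, the group the family's name points to, had 5 of 7 members past the minimum level and 0 past 2-fold in any comparison. Over all genes, 0.559% were at least 2-fold higher at 20 s, 0.538% at 60 s and 0.143% at 60 s against 20 s. With 5 genes, nothing is read from that count. At 20 s 3 were higher and 2 lower (median 0.06, against -0.00 over all genes). At 60 s 2 were higher and 3 lower (median -0.04, against 0.01). The shares of all genes that were higher were 48.5% and 54.6%. STOP1, the zinc finger regulator of aluminium tolerance, stood at 24.1, 26.5 and 28.1 FPKM, and ALS3, a transporter, at 4.82, 5.20 and 6.07 FPKM. ALS3, under 5 FPKM at 0 s, passed the minimum level through its values at 20 s and 60 s. It is among the genes counted as higher in each comparison. The citrate transporter gene AT1G51340 (MATE) stood at 7.72, 6.52 and 7.40 FPKM and ABCB27, also known as ALS1, at 26.5, 26.2 and 24.4 FPKM. The ABC transporter gene ABCI17, also known as STAR1, stood at 15.1, 15.8 and 14.6 FPKM and was the lowest by ratio at 60 s against 20 s. ALMT1, the malate channel that STOP1 controls, stayed under 0.1 FPKM at every exposure. At 60 s against 20 s, 3 were higher and 2 lower (median 0.08, against 0.02 over all genes), and 57.6% of all genes were higher.

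**Figure D5:**
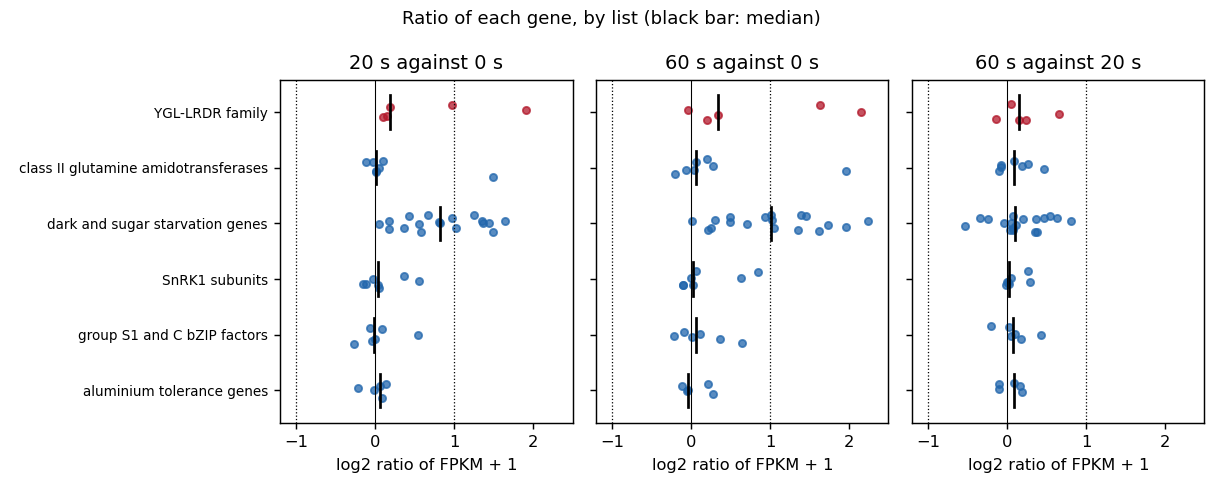
Log2 ratio of FPKM + 1 (horizontal axis) of each gene in the family (red) and of each gene past the minimum level in the 5 lists (blue), for the 3 comparisons; black bars are medians and dotted lines mark 2-fold. Against 0 s, AT3G15450 and AT4G27450 lie within or above the range of the starvation genes. The other 3 members lie near 0, also in the lower part of that range, except AT3G22850, which is below it at the longer exposure.

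Genes whose pattern was most like that of the 2 high members were found by their distance in the plane of log2 ratios at 20 s and 60 s against 0 s, over the 3 exposures and among 11529 protein-coding genes (11528 for AT4G27450) past the minimum level and above 0 throughout, with a locus of at least 300 bases that overlaps no other listed gene. Nearest to AT3G15450 was AT2G20670, a gene with a DUF506 domain, at 22.8, 80.9 and 97.4 FPKM (distance 0.16). AT5G19120, an aspartyl protease family gene, followed at 21.3, 70.9 and 78.7 FPKM (0.38), and then ASN1 (0.46). Nearest to AT4G27450 were AT3G07350, also with a DUF506 domain, at 2.17, 6.10 and 7.93 FPKM (0.24), TPS11, a class II trehalose-6-phosphate synthase, at 15.4, 38.0 and 49.3 FPKM (0.28), and AT3G10020, with no described function in the annotation, at 45.4, 104 and 122 FPKM (0.30). AT3G07350 and ASN1, under 5 FPKM at 0 s, passed the minimum level through their values at 20 s and 60 s. The distances hold for a pseudocount of 1 FPKM. Of the genes named here, it shrinks the ratios of AT3G07350 most, because its values are the lowest. The order of nearest genes was not computed with another pseudocount. AT3G15450 and AT4G27450 were 1.08 apart, so each had other genes nearer to it than its own relative. The ratios share the 0 s values, and 3 exposures are few, so likeness of this kind is a description.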

How the data were processed

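The authors deposited FPKM values, 1 per gene and exposure, so the 3 pools of an exposure are seen only as the authors' combined value. The submitters' processing notes name TopHat, Bowtie and Cufflinks and the TAIR9 build. Versions, strand handling, the way pools were combined and the number of reads are not stated in the labels or notes, so the depth is unknown and no interval can be given. How reads shared by related genes were handled is likewise not stated.

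Columns were matched to exposures by name, and 0 were left unmapped. log2((x + 1)/(y + 1)) was computed with a pseudocount of 1 FPKM, which understates differences of low genes, for genes that averaged 5 FPKM or more. limma was planned for values per pool and could not be used. The ratio step was tested on simulated data. Names came from RefSeq TAIR10.1, which matched 32690 of 33473 identifiers. Of 12238 genes with the same end in table and reference, 8829 had the same start after adding 1, so table coordinates are given counted from 1. Sequences use RefSeq coordinates on the RefSeq genome alone. The coding sequence is the longest of the annotated isoforms. Identity was counted over aligned residues of translated sequences (global alignment, BLOSUM62).

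The members and lists were chosen with earlier results of these data known. Named were the 5 members, of each list the 2 highest and 2 lowest genes per comparison, with a few others of known role chosen after their values were seen, and the 3 nearest genes of each member past 1.5-fold. Of the bZIP list, 2 genes were not analysed here. Python 3.11.15, pandas 2.3.3, numpy 2.4.6, Biopython 1.88 and matplotlib 3.10.9 were used.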

Additional observations from a re-analysis of the deposited data

How the results depend on the processing

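Median centring and quantile normalization kept the direction of every member's ratio in the 3 comparisons. Other pseudocounts (0.1 and 5 FPKM) were also run, which change the size of a ratio but cannot change its direction. As log2 ratios to 0 s, AT3G15450 ranged over 1.87 to 1.92 (20 s) and 2.1 to 2.16 (60 s), and AT4G27450 over 0.86 to 1.00 (20 s) and 1.47 to 1.67 (60 s), lowest with 5 FPKM as the pseudocount, which shrinks low values by construction. The number of members at least 2-fold higher was the same under those settings. All of them keep a pseudocount, and with each AT4G27450 at 20 s lay below the limit, though its plain ratio of FPKM was 2.00. Other minimum levels could not change the number of members past 2-fold, since every member passed them. With a limit of 1.5-fold the number was 2 at 20 s against 0 s (1 at 2-fold) and 1 at 60 s against 20 s (0 at 2-fold). The median of the starvation genes was 0.58 at 20 s and 0.71 at 60 s with no minimum level. The amidotransferase median at 60 s against 20 s was then -0.03, and the SnRK1 medians, close to 0, turned to -0.01 at 60 s against 0 s with quantile normalization and to -0.00 at 60 s against 20 s with median centring. Against protein-coding genes with a locus of their own, an alternative chosen after seeing the data, the share of all genes at least 2-fold higher was 0.434% at 20 s, 0.425% at 60 s and 0.0434% at 60 s against 20 s. No paired analysis was possible because the table holds 1 value per exposure, and leaving out a pool was not run for the same reason. The missing depth limits low genes most.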

Other observations

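AT2G20670 and AT3G07350 were the nearest genes by pattern to AT3G15450 and AT4G27450 with a pseudocount of 1 FPKM, the only one used for this. Both carry the DUF506 annotation, so the remaining genes with it were looked at after this was seen. Of 13 such genes in the table, 6 had a mean of at least 5 FPKM. Of these, 3 were at least 2-fold higher at 20 s than at 0 s and 2 at 60 s, against 0.559% and 0.538% of all genes. AT2G20670 and AT3G07350, the 2 that led to this look, are among the 3 at 20 s and are the 2 at 60 s. Nothing is therefore read from these counts beside the shares. The minimum level also bears on the counts, since AT3G07350 and AT4G32480 passed it through their values at 20 s and 60 s. AT1G62420, at 5.26, 3.66 and 3.82 FPKM and so lower at 20 s and 60 s, did not pass it. The third gene past 2-fold at 20 s was AT4G32480, at 4.09, 13.0 and 8.92 FPKM at 0, 20 and 60 s. It was lower at 60 s than at 20 s, unlike the 2 others. Its log2 ratio at 60 s against 0 s was 0.96 after adding 1 to each FPKM, just below a 2-fold limit. AT2G38820 stood at 7.34, 9.84 and 12.7 FPKM, AT3G22970 at 64.4, 61.4 and 75.8 FPKM, and AT1G12030 at 9.41, 8.18 and 7.21 FPKM. These values are a description of genes picked for their pattern and carry no test.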
